A study of Mus musculus with 16 samples.

Results

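Germinal centre B cells that had begun to express CD38, called pro-memory cells by the study, were compared with light zone germinal centre B cells under selection, using 6 of the 16 RNA-seq libraries of a series on how memory B cells arise in the mouse spleen. The pro-memory gate, Fraction 5, took cells that were CD38+ and GL7−, expressed much of a yellow fluorescent Bcl6 reporter and carried high surface Efnb1 (3 libraries). The light zone gate, Fraction 3, took CD38− cells with high CD86 and low CXCR4 that were also high for the Bcl6 reporter and low for CD69 (3 libraries). The donor cells of every library were naive B cells of C57BL/6 background with the genotype Bcl6-YFP(KI/+) B1-8hi(KI/+), in which 1 Bcl6 allele carries the reporter and a knocked-in heavy chain gives high affinity for the hapten NP. They were placed in wild-type CD45.1+ mice that were immunised intraperitoneally with NP-CGG in alum, and at day 10 the spleens of 9 recipients were pooled and sorted, each gate being limited to CD45.2+ NP+ CD138− IgG1+ cells. Both populations are therefore switched descendants of naive cells that carried the same knocked-in heavy chain, taken on 1 day. Nothing in the labels states that a gate's libraries came from separate pools, so p-values measure the spread between libraries, which may be technical. The 4 other gates served only as comparisons: Fraction 7 (CD38+ GL7−, reporter low, Efnb1 low, mature memory, 3 libraries), Fraction 6 (CD38+ GL7−, reporter low, Efnb1 high, pre-memory, 2 libraries), the LZ gate (CD38− CD86 high CXCR4 low, 3 libraries) and Fraction 2 (as Fraction 3 but CD69 high, recycling-prone, 2 libraries).

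Germinal centres form around follicular dendritic cells after immunisation, and their B cells alternate between proliferation and hypermutation of the antigen receptor in the dark zone and testing of that receptor in the light zone. There, cells that capture antigen and present it to follicular helper T cells are induced to express Myc, raise nutrient uptake and return to cycle, while others die or leave as plasma cells or memory B cells. Bcl6 is the transcriptional repressor that holds cells in the germinal centre programme, and regained CD38 with falling Bcl6 marks the passage to memory. Fraction 5 combines the CD38+ GL7− surface of a memory cell with a Bcl6 reporter still high.

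The 6 libraries were alike in their deposited FPKM values (fragments scaled by transcript length and library total). Between 10267 and 10324 genes reached 1 FPKM in Fraction 5 libraries, and between 10133 and 10210 in Fraction 3 libraries. Pearson's r of log2(FPKM + 1) across genes was 0.951 to 0.960 within Fraction 5, 0.955 to 0.966 within Fraction 3 and 0.940 to 0.953 between them. FPKM keep no read numbers, so the depth of each library is unknown. Markers of other cells were low or alike: the 7 plasma cell markers summed to 413 to 456 FPKM in Fraction 5 and 426 to 501 FPKM in Fraction 3, none of them called, and 8 T cell markers summed to 23.9 to 28.1 FPKM in Fraction 5 and 26.0 to 37.0 FPKM in Fraction 3, with the defining CD3 chains near 0. Myeloid markers reached 10.5 FPKM in the second Fraction 5 library and 29.6 FPKM in the third Fraction 3 library, against 1.16 to 2.06 FPKM in the other 4. In all, 4 of 6 tested markers that resting naive and marginal zone B cells share with memory cells were called higher, and the markers summed to 493.6, 449.6 and 556.7 FPKM in Fraction 5, against 342, 374 and 407 FPKM in Fraction 3.

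Of 11266 genes tested, 1125 were higher in Fraction 5 (9.99%) and 2197 were lower (19.5%), 29.5% in all, at an adjusted p under 0.05 (limma on log2(FPKM + 1), Benjamini-Hochberg over all tested genes). Changes were mostly modest, with 63 genes higher and 109 lower by more than 2-fold. All 3 Fraction 5 libraries were above all 3 Fraction 3 libraries for 1961 genes (17.4%) and below them for 3009 (26.7%). The median log2 difference over all tested genes was −0.03. Where a list count below has no share beside it, the shares over all tested genes are these 9.99% higher and 19.5% lower. The share of calls that were higher depends on scaling: it was 33.9% as deposited, 43.1% after median-ratio scaling and 50.2% after quantile normalization, where 1675 genes were higher and 1664 lower. Listed genes named below kept their call when any 1 of the 6 libraries was left out, unless stated.

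**Figure D1:**
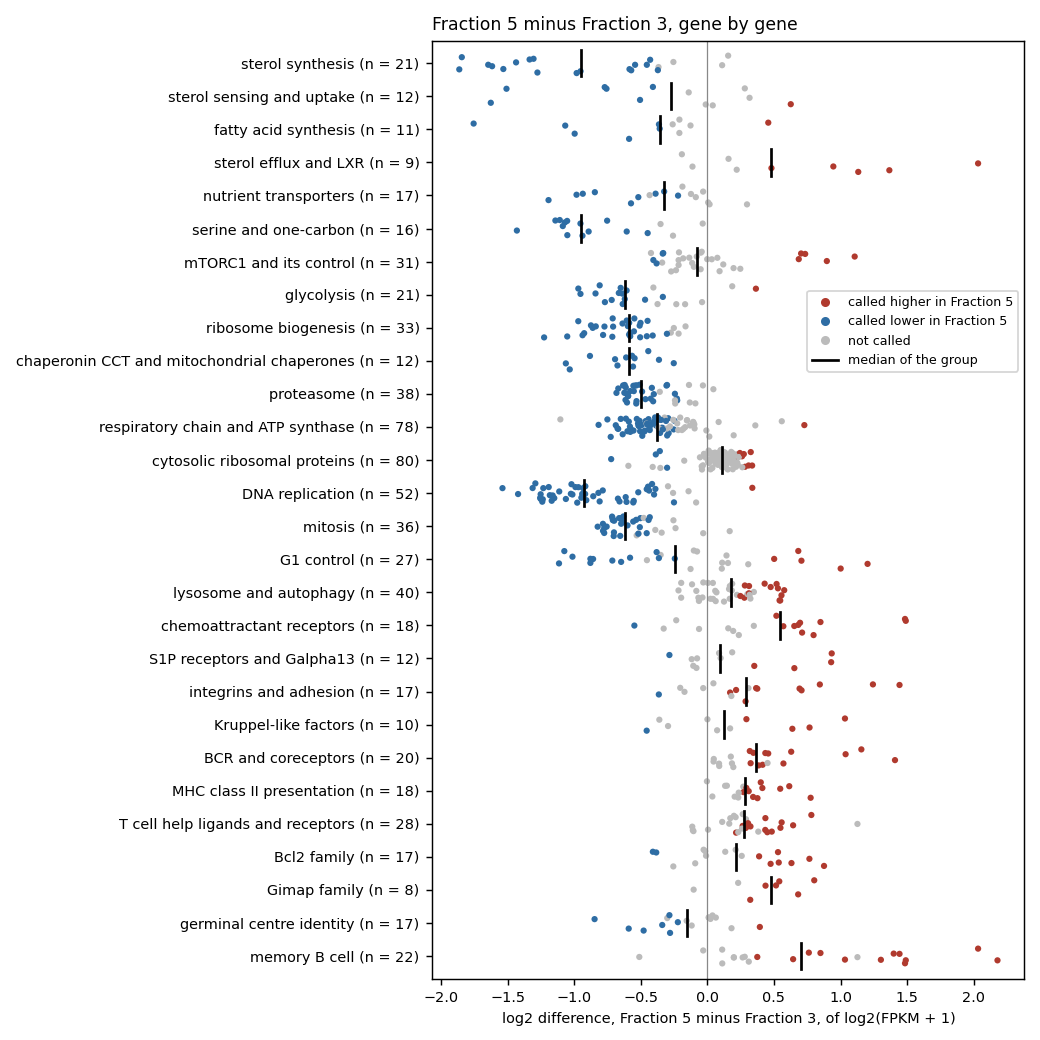
Log2 difference of log2(FPKM + 1), Fraction 5 minus Fraction 3, for each tested gene (points) of 28 gene groups. Red points were called higher in Fraction 5, blue points lower and grey points neither, and the black bar is the median of the group. Sterol synthesis, serine and one-carbon metabolism and DNA replication lie furthest to the left, with medians of −0.95, −0.95 and −0.93, and the memory B cell list furthest to the right, with a median of 0.70.

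The genes behind the sort followed the gates in part, and these values describe the selection and are no finding. Cd38, the ectoenzyme used to divide the gates, had 48.4, 49.2 and 48.2 FPKM in the Fraction 5 libraries, against 8.92, 10.6 and 10.4 FPKM in the Fraction 3 libraries, a log2 difference of 2.18. The mRNA of Bcl6 was not called, with 191, 183 and 194 FPKM in the Fraction 5 libraries, against 174, 182 and 205 FPKM in the Fraction 3 libraries. Both gates were reporter high, the values overlapped, and the log2 difference was 0.02 ± 0.10 (SE; limma, adjusted p = 0.889). Efnb1, the membrane ligand ephrin-B1 that marks germinal centre B cells, was at 57.9 to 67.5 FPKM in Fraction 5 and 57.4 to 66.1 FPKM in Fraction 3. The activation marker Cd69, whose low protein was required of Fraction 3 but not of Fraction 5, had 16.8, 14.7 and 16.3 FPKM in the Fraction 5 libraries, against 11.5, 9.49 and 14.4 FPKM in the Fraction 3 libraries. Its call as higher (0.42) was lost without Fraction 5 library 1 or Fraction 3 library 2 (highest limma adjusted p 0.0579).

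Enzymes of the mevalonate and cholesterol pathway were broadly lower in Fraction 5. The pathway builds sterols and isoprenoids from acetyl-CoA, and its enzymes are switched on together by the factor SREBP-2 when membranes run short of sterol. Of 21 tested enzymes 17 were lower in Fraction 5 and none was higher, with a median log2 difference of −0.95 (19.5% of all tested genes were lower, median −0.03). Sqle, the squalene epoxidase that commits squalene to sterols, had 8.27, 9.98 and 11.4 FPKM in the Fraction 5 libraries, against 30.6, 33.8 and 34.4 FPKM in the Fraction 3 libraries. No library of one gate reached the range of the other, and the log2 difference was −1.65 ± 0.09 (SE; limma, adjusted p = 4.90e-07). Idi1, which isomerises isopentenyl diphosphate, had 9.27, 13 and 13.1 FPKM in the Fraction 5 libraries, against 43.9, 49.8 and 41.9 FPKM in the Fraction 3 libraries, a log2 difference of −1.86 ± 0.14 (SE; limma, adjusted p = 2.95e-06). Its Fraction 3 libraries were all more than 3 times the highest Fraction 5 library.

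The falls ran along the whole pathway, though not at every step. At its entry, Hmgcs1, the HMG-CoA synthase, had 8.06, 10.5 and 10.6 FPKM in the Fraction 5 libraries, against 23.6, 27.2 and 25.4 FPKM in the Fraction 3 libraries, a log2 difference of −1.31 ± 0.13. Fdps, which makes farnesyl diphosphate, had 18.7, 22.8 and 28.0 FPKM in the Fraction 5 libraries, against 68.7, 70.8 and 77.8 FPKM in the Fraction 3 libraries (−1.62 ± 0.13). Cyp51, the demethylase of lanosterol, had 9.17, 10.6 and 11.1 FPKM in the Fraction 5 libraries, against 32.9, 31.6 and 30.4 FPKM in the Fraction 3 libraries (−1.53 ± 0.10). For each of these genes the gates were far apart. Other called members included Acat2 (−0.54), which condenses acetyl-CoA, Mvd (−0.95), the squalene synthase Fdft1 (−1.44), the lanosterol synthase Lss (−1.34), the methyl sterol oxidase Msmo1 (listed as Sc4mol, −1.28), Hsd17b7 (−0.46), Sc5d (−0.57) and Dhcr7 (−0.59). Pmvk (−0.37) lost its call without Fraction 5 library 1 or any 1 Fraction 3 library (highest limma adjusted p 0.141), and Nsdhl (−0.43) without Fraction 5 library 1 or Fraction 3 library 2 (highest 0.0777). The 4 members without a call were Mvk (−0.37), Ggps1 (0.11), which branches off toward protein prenylation, Tm7sf2 (0.16) and Ebp (−0.26).

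**Figure D2:**
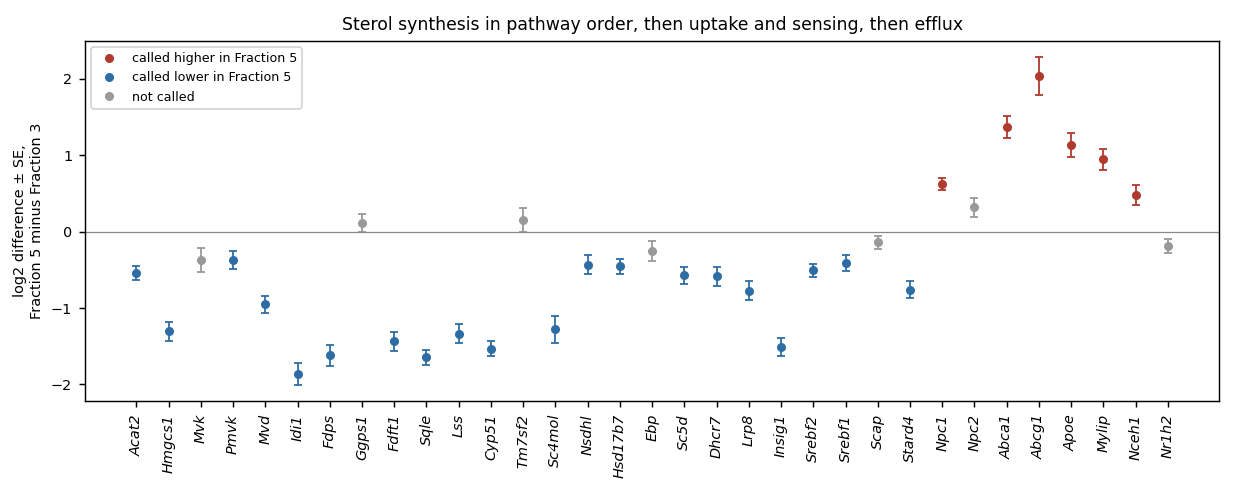
Log2 difference of log2(FPKM + 1), Fraction 5 minus Fraction 3, with its standard error (bars), for enzymes of sterol synthesis in pathway order, genes of sterol sensing and uptake, and genes of sterol efflux. Most synthesis genes lie below 0, with Idi1 at −1.86 and Sqle at −1.65, and Abcg1, Abca1, Apoe and Mylip lie above it, between 0.95 and 2.03.

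Genes of sterol sensing and uptake fell with the enzymes, and genes of sterol export rose. Insig1, a sterol sensor that is itself an SREBP target, had 7.45, 9.18 and 11.3 FPKM in the Fraction 5 libraries, against 26.5, 29.5 and 28.1 FPKM in the Fraction 3 libraries, a log2 difference of −1.51 ± 0.11 (SE; limma, adjusted p = 2.77e-06). Srebf2, which encodes SREBP-2, had 80.2, 81.0 and 87.5 FPKM in the Fraction 5 libraries, against 117, 117 and 120.1 FPKM in the Fraction 3 libraries, a log2 difference of −0.51 ± 0.08 (SE; limma, adjusted p = 0.000532). The gates did not overlap for either gene. Of 12 tested genes of this group, 6 were lower and 1, the lysosomal cholesterol transporter Npc1 (0.63), was higher. Srebf1 (−0.41) lost its call without Fraction 5 library 1 (adjusted p 0.0586).

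Export is governed by the liver X receptors, which sense oxysterols. Of 9 tested efflux genes 5 were higher and none was lower, with a median of 0.48 (9.99% of all genes were higher). Abcg1, a transporter that hands cholesterol to lipoproteins, had 9.12, 10.6 and 6.63 FPKM in the Fraction 5 libraries, against 0.935, 2.19 and 1.12 FPKM in the Fraction 3 libraries, a log2 difference of 2.03 ± 0.25 (SE; limma, adjusted p = 6.42e-05). Its partner Abca1 had 19.3, 18.9 and 16.2 FPKM in the Fraction 5 libraries, against 5.71, 7.78 and 5.91 FPKM in the Fraction 3 libraries, a log2 difference of 1.37 ± 0.15 (SE; limma, adjusted p = 2.94e-05). Apoe, the apolipoprotein that accepts cholesterol, had 685, 615 and 722 FPKM in the Fraction 5 libraries, against 300.1, 251 and 380.1 FPKM in the Fraction 3 libraries, a log2 difference of 1.13 ± 0.16 (SE; limma, adjusted p = 0.000168). The gates did not overlap for any of these 3 genes. Mylip, a ubiquitin ligase and target of the liver X receptors, had 39.5, 38.6 and 35.1 FPKM in Fraction 5, against 17.1, 20.7 and 19.7 FPKM in Fraction 3 (0.95 ± 0.14), and the cholesterol ester hydrolase Nceh1 was higher by 0.48. The receptor gene Nr1h2 itself was not called (−0.19).

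Promoter sequences of the sterol genes are shown because 17 of 21 enzymes moved one way, and their known regulators read 2 short motifs there: the sterol regulatory element, searched by its core TCACNCCA, and the CCAAT box bound by NF-Y, the partner of SREBP. RefSeq promoters (GRCm38.p6, 250 bases before to 50 after the start) were found for 16 of the 21. CCAAT stood on either strand in 15 of the 16 (93.8%), against 44.0% of 8850 tested genes with a promoter. It was also common in mitosis promoters (75.9%) and in those of serine and one-carbon genes (78.6%), and it stood in the promoters of all 4 sterol enzymes without a call. The element core stood in 2 of 16 (12.5%), against 4.43%. Capitals mark the match of the motif for which a gene is shown, so that other CCAAT or ATTGG letters, as in the Msmo1 and Srebf2 lines, stay in lower case. Every sequence runs 5′ to 3′ on the strand of its gene, and a match is a description of the letters, not of binding. Hmgcs1 (chr13:119690188-119690247, plus strand), Msmo1 (Sc4mol, chr8:64733722-64733781, minus strand) and Srebf2 (chr15:82147081-82147140, plus strand) carry the element core, and Idi1 (chr13:8885546-8885605, plus strand), Cyp51 (chr5:4104698-4104757, minus strand), Lss (chr10:76531515-76531574, plus strand) and Insig1 (chr5:28071168-28071227, plus strand) carry CCAAT or its complement ATTGG.
Hmgcs1: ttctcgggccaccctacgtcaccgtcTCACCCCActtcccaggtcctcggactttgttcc
Msmo1: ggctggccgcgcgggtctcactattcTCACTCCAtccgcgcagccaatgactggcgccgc
Srebf2: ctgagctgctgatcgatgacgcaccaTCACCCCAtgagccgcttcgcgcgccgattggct
Idi1: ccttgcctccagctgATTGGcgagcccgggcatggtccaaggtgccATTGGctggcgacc
Cyp51: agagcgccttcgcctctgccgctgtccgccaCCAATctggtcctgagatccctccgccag
Lss: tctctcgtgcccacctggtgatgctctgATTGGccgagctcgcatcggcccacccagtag
Insig1: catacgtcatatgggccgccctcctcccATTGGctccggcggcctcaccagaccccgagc

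Fatty acid synthesis fell in part. Of 11 tested genes 6 were lower and 1 was higher. Fads2, a desaturase of polyunsaturated fatty acids, had 1.38, 0.952 and 1.7 FPKM in the Fraction 5 libraries, against 7.56, 6.58 and 6.48 FPKM in the Fraction 3 libraries, and Fasn, the fatty acid synthase, had 11.4, 12.7 and 12.9 FPKM in the Fraction 5 libraries, against 28.2, 27.7 and 25.0 FPKM in the Fraction 3 libraries. Their log2 differences were −1.76 ± 0.17 (SE; limma, adjusted p = 1.29e-05) and −1.07 ± 0.08 (SE; limma, adjusted p = 2.74e-06), with no overlap between gates. Fads1 was lower, averaging 2.14 ± 0.0847 FPKM in Fraction 5, against 5.28 ± 0.588 FPKM in Fraction 3 (SD, n = 3 each), as was Acly (−0.36), which supplies cytosolic acetyl-CoA. The stearoyl-CoA desaturases parted: Scd2 was lower (19.6, 26.0 and 22.2 FPKM in Fraction 5, against 33.8, 33.6 and 35.5 FPKM in Fraction 3) and Scd1 higher (0.46). These paralogs are similar in sequence, and how reads were shared between them is not given in the sources used here.

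Nutrient uptake and one-carbon metabolism were lower in Fraction 5. Of 17 tested nutrient transporters 9 were lower (52.9%, against 19.5% of all genes) and none higher, with a median of −0.33. Slc7a5, a subunit of the leucine transporter that feeds mTORC1, had 7.35, 9.85 and 8.33 FPKM in the Fraction 5 libraries, against 21.5, 23.6 and 17.3 FPKM in the Fraction 3 libraries, a log2 difference of −1.19 ± 0.14 (SE; limma, adjusted p = 5.03e-05). Tfrc, the transferrin receptor for iron, had 6.67, 8.24 and 7.03 FPKM in the Fraction 5 libraries, against 14.9, 15.9 and 13.8 FPKM in the Fraction 3 libraries (−0.94 ± 0.13). The monocarboxylate transporter Slc16a1 (−0.98), the nucleoside transporter Slc29a1 (−0.85) and the cystine transporter Slc7a11 (−0.57) also fell. The glucose transporter Slc2a1 was not called (−0.09).

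Serine and one-carbon enzymes, which supply carbon units for purines and thymidine, were lower for 13 of 16 genes and higher for none, with a median of −0.95. Shmt2, the mitochondrial serine hydroxymethyltransferase, had 18.9, 27.1 and 23.7 FPKM in the Fraction 5 libraries, against 72.9, 64.3 and 55.0 FPKM in the Fraction 3 libraries, a log2 difference of −1.43 ± 0.12 (SE; limma, adjusted p = 6.98e-06). Phgdh, the first enzyme of serine synthesis (−1.14), the purine enzymes Gart (−1.09) and Atic (−0.95), and Ahcy of the methionine cycle (−0.75) fell with it. Srm, the spermidine synthase and a known Myc target, had 9.56, 11.8 and 11.7 FPKM in the Fraction 5 libraries, against 40.2, 33.5 and 27.4 FPKM in the Fraction 3 libraries (−1.52 ± 0.17).

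A few of the Myc and mTORC1 regulators themselves changed. Myc had 14.2, 14.6 and 18.7 FPKM in the Fraction 5 libraries, against 25.1, 26.9 and 21.1 FPKM in the Fraction 3 libraries, so the gates were separate by a narrow margin, and its log2 difference was −0.60 ± 0.12 (SE; limma, adjusted p = 0.00229). Mxd4, which competes with Myc for the partner Max, had 103, 106 and 95.6 FPKM in Fraction 5, against 62.0, 54.6 and 67.6 FPKM in Fraction 3 (0.72 ± 0.12). Among 31 genes of mTORC1 and its control 5 were higher (16.1%, against 9.99% of all genes) and 4 lower (12.9%, against 19.5%). Sesn1, a leucine-sensing inhibitor, had 17.4, 17.3 and 15.6 FPKM in the Fraction 5 libraries, against 8.14, 8.42 and 9.06 FPKM in the Fraction 3 libraries, a log2 difference of 0.90 ± 0.07 (SE; limma, adjusted p = 2.74e-06). Ddit4, which restrains mTORC1 through the TSC complex, had 37.1, 31.1 and 39.3 FPKM in Fraction 5, against 20.4, 19.3 and 25.2 FPKM in Fraction 3 (0.70 ± 0.11), Sesn2 was higher by 0.73 and Pik3ip1, an inhibitor of PI3 kinase, by 1.11. The fifth, the arginine sensor Castor1 (listed as Gatsl3, 0.69), lost its call without any 1 of 4 libraries, Fraction 5 libraries 1 and 3 and Fraction 3 libraries 1 and 2 (highest limma adjusted p 0.134). The activators Rheb (−0.41) and Rraga (−0.38) were among the lower genes, whose number was 2 without Fraction 5 library 3 or after quantile normalization and 7 with array weights. The kinase Mtor (−0.11) and its partner Rptor (−0.21) were not called.

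Genes that make, fold and degrade protein were largely lower, apart from the ribosomal proteins. All 33 tested genes of ribosome biogenesis lay below 0, 29 of them called, with a median of −0.59. Gar1, a core protein of the particles that modify ribosomal RNA, had 15.2, 14.7 and 15.3 FPKM in the Fraction 5 libraries, against 40.4, 33.9 and 36.0 FPKM in the Fraction 3 libraries, a log2 difference of −1.23 ± 0.07 (SE; limma, adjusted p = 4.90e-07). Nop58 (−1.05) and Bop1 (−0.60) fell too. Of 35 tRNA synthetases 20 were lower and 1 was higher, among them Cars (−0.87), Yars (−0.84) and Iars (−0.76). All 12 chaperonin and mitochondrial chaperone genes were lower (median −0.59), including Hspa9 (−1.03) and the CCT subunit Cct3 (−0.69). Of 38 proteasome subunits 30 were lower and none was higher (median −0.50), such as Psmd1 (−0.68) and Psmc3 (−0.58). The cytosolic ribosomal proteins did not follow, with a median of 0.11. Of 80, 8 were higher (10.0%, against 9.99% of all genes) and 4 lower (5.0%, against 19.5%). The higher count was 1 without Fraction 3 library 2, 14 after quantile normalization and 24 after median-ratio scaling.

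Genes of energy metabolism were mostly lower and lysosomal genes were partly higher. Of 21 glycolysis and pentose phosphate genes 14 were lower and 1 was higher (median −0.62). Ldha, the lactate dehydrogenase, had 150.3, 163 and 153 FPKM in the Fraction 5 libraries, against 294, 258 and 269 FPKM in the Fraction 3 libraries (−0.81 ± 0.08), and Tpi1 (−0.95), Gapdh (−0.64), Pgk1 (−0.65) and the transketolase Tkt (−0.97) fell as well. Of 78 genes of the respiratory chain and ATP synthase 50 were lower and 1 higher (median −0.38), a count of 31 after quantile normalization, with Atp5g3 at −0.65 and Atp5a1 at −0.57. Mitochondrial ribosomal proteins were lower for 43 of 73, for 23 after quantile normalization and for 27 without Fraction 3 library 1. Against these, 13 of 40 lysosome and autophagy genes were higher (32.5%, against 9.99% of all genes) and none was lower (median 0.18). Among them were the proteases Ctsd (0.52) and Ctss (0.55), the saposin precursor Psap (0.53) and the hexosaminidase Hexa (0.58). Atg9a (0.54), which supplies membrane to autophagosomes, was another.

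Cell cycle genes were lower in Fraction 5, those of DNA replication nearly all. Of 52 replication genes 47 were lower and 1 was higher, with a median of −0.93. Pcna, the sliding clamp of the replication fork, had 156, 203 and 171 FPKM in the Fraction 5 libraries, against 416, 393 and 400.2 FPKM in the Fraction 3 libraries, a log2 difference of −1.19 ± 0.08 (SE; limma, adjusted p = 2.10e-06). Lig1, the ligase that joins Okazaki fragments, had 32.4, 37.8 and 35.3 FPKM in the Fraction 5 libraries, against 87.2, 87.0 and 79.0 FPKM in the Fraction 3 libraries, a log2 difference of −1.24 ± 0.07 (SE; limma, adjusted p = 4.90e-07). Each Fraction 5 library was below each Fraction 3 library by a wide margin for both. Uhrf1, which carries DNA methylation through replication, had 32.5, 44.4 and 40.5 FPKM in Fraction 5, against 106, 113 and 99.3 FPKM in Fraction 3 (−1.42 ± 0.11), and Gins1 of the replicative helicase had 6.99, 8.43 and 8.73 FPKM in Fraction 5, against 28.1, 20.7 and 27.6 FPKM in Fraction 3 (−1.54 ± 0.24). The helicase subunits Mcm2 (−1.24), Mcm3 (−1.25), Mcm5 (−1.29), Mcm6 (−1.06) and Mcm7 (−1.15) and the loader Cdc6 (−1.23) fell together.

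Promoters of replication genes are shown because this group held the highest share of E2F motifs among the lists searched. The motif was searched as TTTGGCGC, TTTCCCGC, TTTCGCGC or TTTGCCGC on either strand. It stood in 17 of 45 replication promoters (37.8%), against 4.97% of all tested genes with a promoter, 8.96% of those lower in Fraction 5 and 19 of 904 of those higher. Capitals mark the motif or its reverse complement, which overlap in Mcm5 and at the first match of Mcm6, in the RefSeq promoters (GRCm38.p6) of Mcm5 (chr8:75109332-75109391, plus strand), Mcm6 (chr1:128359745-128359815, minus strand), Cdc6 (chr11:98907987-98908046, plus strand) and Uhrf1 (chr17:56304102-56304161, plus strand).
Mcm5: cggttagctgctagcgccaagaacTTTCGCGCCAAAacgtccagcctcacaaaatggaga
Mcm6: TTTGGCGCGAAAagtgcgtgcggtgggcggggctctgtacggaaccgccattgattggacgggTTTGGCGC
Cdc6: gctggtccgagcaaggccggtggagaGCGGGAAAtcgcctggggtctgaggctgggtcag
Uhrf1: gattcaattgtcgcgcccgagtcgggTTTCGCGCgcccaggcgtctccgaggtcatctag

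The G1 regulators moved in both directions. Cdkn1b, the inhibitor p27 of cyclin-dependent kinases, had 18.3, 20.7 and 18.0 FPKM in the Fraction 5 libraries, against 7.56, 8.66 and 11.0 FPKM in the Fraction 3 libraries, a log2 difference of 1.00 ± 0.13 (SE; limma, adjusted p = 9.57e-05). Ccnd2, the D-type cyclin, was higher as well, with 6.25, 8.13 and 4.55 FPKM in the Fraction 5 libraries, against 2.16, 2.42 and 1.79 FPKM in the Fraction 3 libraries and a log2 difference of 1.20 ± 0.15 (SE; limma, adjusted p = 8.23e-05). The antiproliferative genes Tob1 (0.71), Btg2 (0.68) and Btg1 (0.50) completed the 5 of 27 that were higher (18.5%, against 9.99% of all genes). Another 12 were lower (44.4%, against 19.5%). Of the 12 lower, E2f1 had 14.7, 13.5 and 15.5 FPKM in Fraction 5, against 28.1, 27.1 and 27.8 FPKM in Fraction 3 (−0.88 ± 0.11), and the E-type cyclins Ccne1 (−0.88) and Ccne2 (−1.08), the repressors E2f7 (−1.01) and E2f8 (−1.12) and the kinase Cdk4 (−0.71) fell too. Mitosis genes were lower for 27 of 36 (median −0.62), but for 13 without Fraction 5 library 1. Incenp (−0.71) and the kinase Aurkb (−0.76) were among them. Mki67 had 65.9, 96.6 and 67.2 FPKM in the Fraction 5 libraries, against 122, 142 and 108 FPKM in the Fraction 3 libraries, with the second Fraction 5 library the highest of its gate. Its log2 difference was −0.70 ± 0.18 (SE; limma, adjusted p = 0.0102).

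DNA repair and chromatin genes were lower in part. Of 22 hypermutation and repair genes 10 were lower (45.5%, against 19.5% of all genes) and none was higher. They included the uracil glycosylase Ung (−1.21), the abasic endonuclease Apex1 (−0.99) and the mismatch factor Msh6 (−0.69). These lists share genes with DNA replication: Lig1 (−1.24) also counts here, and Uhrf1 (−1.42) among the polycomb and DNA methylation genes. Linker histone and HMG genes were lower for 10 of 20, such as H2afz (−0.98) and Hmgb2 (−0.83). Among polycomb and DNA methylation genes, the maintenance methyltransferase Dnmt1 had 61.3, 78.2 and 70.5 FPKM in the Fraction 5 libraries, against 133, 134 and 125 FPKM in the Fraction 3 libraries (−0.90 ± 0.08), and the polycomb methyltransferase Ezh2 was lower (−0.48). In the other direction, Ezh1 (0.48), Jarid2 (0.57), Cbx7 (0.40) and the de novo methyltransferase Dnmt3a (0.36) were higher. Over this list 5 of 22 were higher (22.7%, against 9.99% of all genes) and 9 lower (40.9%, against 19.5%).

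**Figure D3:**
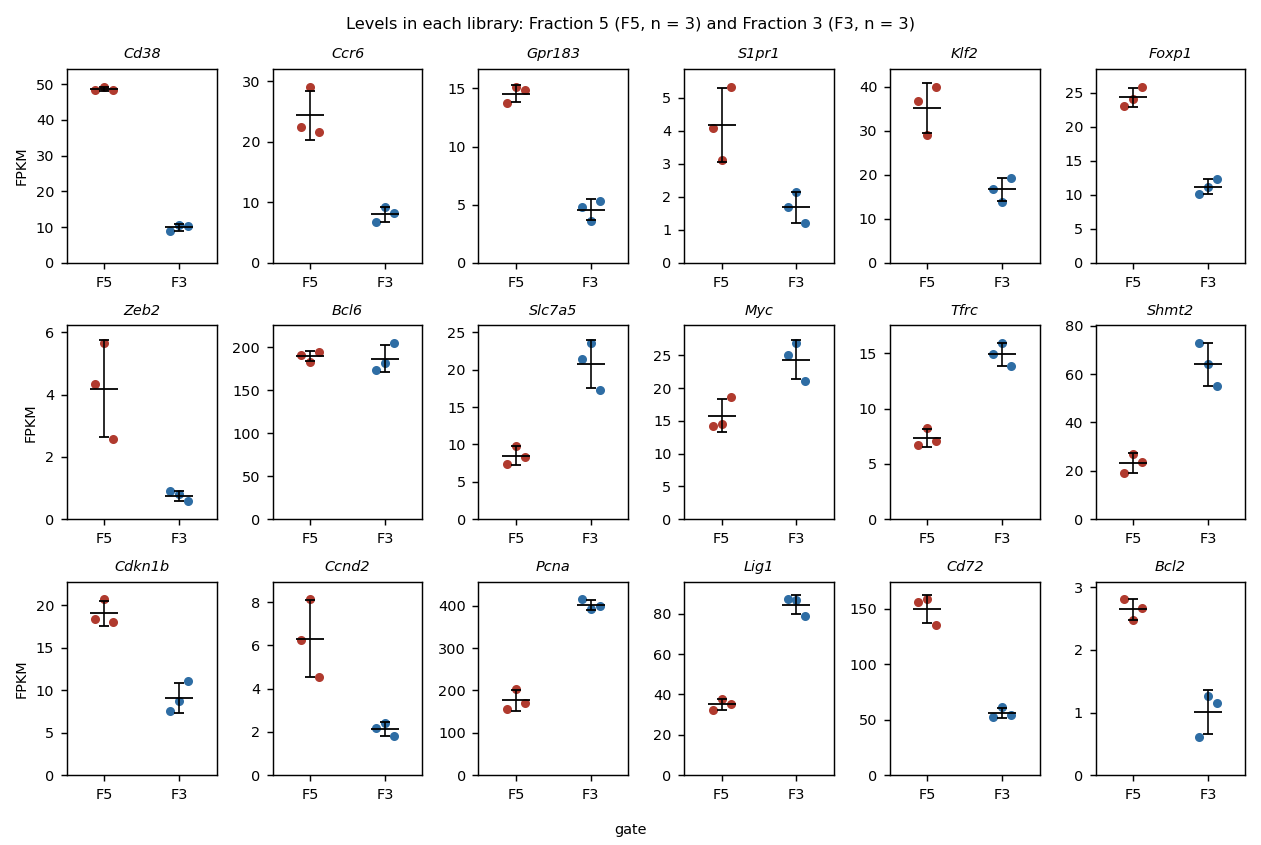
FPKM in each library (points), Fraction 5 left and Fraction 3 right, with the mean and SD of 3 libraries, for 18 genes of migration, fate, metabolism, cell cycle and survival. Ccr6 averaged 24.4 ± 4.07 FPKM in Fraction 5, against 8.06 ± 1.25 FPKM in Fraction 3, and Pcna averaged 177 ± 24.3 FPKM in Fraction 5, against 403 ± 11.7 FPKM in Fraction 3 (SD, n = 3 each), without overlap between gates, whereas Bcl6 overlapped.

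Receptors that position B cells were higher in Fraction 5. Of 18 tested chemoattractant receptors 10 were higher and 1 was lower, with a median of 0.54, and 7 were higher without Fraction 5 library 2. Ccr6, the CCL20 receptor typical of memory precursors, had 22.5, 29.1 and 21.6 FPKM in the Fraction 5 libraries, against 6.75, 9.24 and 8.2 FPKM in the Fraction 3 libraries, a log2 difference of 1.48 ± 0.13 (SE; limma, adjusted p = 7.00e-06). Gpr183, the oxysterol receptor EBI2 that draws B cells to the outer follicle, had 13.7, 15.1 and 14.9 FPKM in the Fraction 5 libraries, against 4.78, 3.61 and 5.36 FPKM in the Fraction 3 libraries, a log2 difference of 1.49 ± 0.13 (SE; limma, adjusted p = 8.38e-06). Every Fraction 5 library exceeded every Fraction 3 library by more than 2-fold for both. Cxcr3 (0.85), Gpr18 (0.57) and the cannabinoid receptor Cnr2 (0.52) rose too, the scavenging receptor Ackr4 (listed as Ccrl1, −0.55) fell, and the follicular receptor Cxcr5 was not called (0.24).

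Some genes of tissue exit were higher. Of 12 tested S1P receptor and Galpha13 genes 4 were higher (33.3%, against 9.99% of all genes) and 1 was lower (8.33%, against 19.5%). The lower gene was Gna13 (−0.29), which transmits the confining signal of S1pr2. Gna13 lost its call without Fraction 5 library 1, Fraction 3 library 2 or Fraction 3 library 3 (highest limma adjusted p 0.0774). S1pr1, the sphingosine-1-phosphate receptor that lets lymphocytes leave into blood, had 4.08, 3.1 and 5.32 FPKM in the Fraction 5 libraries, against 1.7, 2.15 and 1.22 FPKM in the Fraction 3 libraries, a log2 difference of 0.93 ± 0.17 (SE; limma, adjusted p = 0.00132). Its mean was 104 FPKM in Fraction 7 and 37.3 FPKM in Fraction 6. Klf2, the factor that drives S1pr1, had 36.8, 29.0 and 40.0 FPKM in the Fraction 5 libraries, against 16.9, 13.9 and 19.3 FPKM in the Fraction 3 libraries, a log2 difference of 1.03 ± 0.17 (SE; limma, adjusted p = 0.00049). Of 10 tested Kruppel-like factors 4 were higher (40.0%, against 9.99% of all genes) and 1 was lower (10.0%, against 19.5%). Klf3 (0.77) and Klf12 (0.64) were among the higher, and Klf10 (−0.46) was the lower gene. S1pr4 had 19.8, 15.9 and 23.7 FPKM in Fraction 5, against 9.91, 7.82 and 12.1 FPKM in Fraction 3 (0.93 ± 0.17). S1pr2, which confines cells to the germinal centre, was not called, with 153, 148 and 153 FPKM in the Fraction 5 libraries, against 166, 151 and 179 FPKM in the Fraction 3 libraries, while its mean in Fraction 7 was 4.27 FPKM. Naive B cells also express S1pr1 and Klf2, the marker sum for naive cells was higher in Fraction 5 by the values given above, and the part of such cells in these differences was not tested. In sorted bulk RNA, more cells that express a gene and more RNA per cell cannot be told apart.

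Adhesion genes moved the same way. Of 17 integrin and adhesion genes 10 were higher and 1, Cd24a (−0.37), was lower, though 6 were higher without Fraction 5 library 1, Fraction 5 library 2 or Fraction 3 library 1. Itgb7, which pairs with integrin α4 or αE, had 28.4, 28.9 and 29.8 FPKM in the Fraction 5 libraries, against 11.0, 11.7 and 12.4 FPKM in the Fraction 3 libraries, a log2 difference of 1.24 ± 0.12 (SE; limma, adjusted p = 1.60e-05). Alcam (0.84), Pecam1 (0.71) and Selplg (0.69), the ligand of P-selectin, were higher too.

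Transcription factors of B cell fate gave a mixed picture in which a few rose and Bcl6 was not called. Foxp1, which is repressed as B cells enter the germinal centre, had 23.1, 24.2 and 25.9 FPKM in the Fraction 5 libraries, against 10.1, 11.1 and 12.3 FPKM in the Fraction 3 libraries, a log2 difference of 1.06 ± 0.10 (SE; limma, adjusted p = 9.06e-06). Zfp318, known in B cells for control of IgD splicing and typical of resting and memory cells, had 5.94, 6.41 and 4.52 FPKM in the Fraction 5 libraries, against 1.58, 1.6 and 1.3 FPKM in the Fraction 3 libraries, a log2 difference of 1.40 ± 0.14 (SE; limma, adjusted p = 2.00e-05). Zeb2, a zinc finger repressor, had 4.34, 5.65 and 2.57 FPKM in the Fraction 5 libraries, against 0.888, 0.793 and 0.573 FPKM in the Fraction 3 libraries, a log2 difference of 1.53 ± 0.20 (SE; limma, adjusted p = 0.00012). The gates were separate for all 3. The repressor Bhlhe40 (1.06) and the forkhead factor Foxo3 (0.54) were higher, and Myb, a gene of proliferating progenitors and germinal centre cells, was lower (−0.88). Bach2 (0.11), Irf4 (0.23) and the plasma cell factor Prdm1 (0.11) were not called. Over the list of 39 factors 7 were higher (17.9%, against 9.99% of all genes) and 5 lower (12.8%, against 19.5%). After quantile normalization 14 were higher and 1 lower. The lower count was 1 without Fraction 5 library 1. Of 17 immediate early genes 4 were higher (23.5%, against 9.99% of all genes) and 1, Myc, was lower (5.88%, against 19.5%). The antigen-induced genes Nr4a1 (0.90) and Egr3 (1.01) were higher and Egr1 was not called (−0.02). Fraction 3, but not Fraction 5, was sorted for low CD69, and the part of that gate in these differences was not tested.

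The memory B cell list, which holds the sort gene Cd38 as well as Ccr6, Gpr183 and Klf2, had 12 of 22 genes higher and none lower, with a median of 0.70. The germinal centre identity list had 7 of 17 lower and 1, Elk3 (0.39), higher, with a median of −0.16. Leaving out Fraction 5 library 1 or Fraction 3 library 3, like quantile normalization, left 3 of these lower. Basp1 had 135, 143 and 127 FPKM in the Fraction 5 libraries, against 247, 232 and 252 FPKM in the Fraction 3 libraries (−0.85 ± 0.13), and Plxnb2 was lower too (−0.59). Light zone genes were higher for 13 of 22 and lower for 1 (median 0.29), although Fraction 3 was itself a light zone gate, and 8 were higher without Fraction 5 library 1 or Fraction 3 library 2. They included the activation marker Cd83 (0.41) and the cytokine subunit Ebi3 (0.81). The largest rise of the light zone list was Ccr6 (1.48), which is also in the memory list, and its 1 lower gene was Myc (−0.60). Dark zone genes, many of them mitotic, were lower for 7 of 14 and higher for 1 (median −0.51). The lower count was 4 without Fraction 5 library 1, and after quantile normalization 3 were lower and 3 higher.

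Coreceptors of the antigen receptor, several of them inhibitory, were higher. Of 20 BCR and coreceptor genes 12 were higher and none was lower, with a median of 0.36, and 8 were higher without Fraction 3 library 2. Cd72, an inhibitory coreceptor, had 156, 159 and 136 FPKM in the Fraction 5 libraries, against 52.1, 61.0 and 54.5 FPKM in the Fraction 3 libraries, a log2 difference of 1.41 ± 0.15 (SE; limma, adjusted p = 2.24e-05). Cd22, the sialic acid-binding brake on BCR signals, had 516, 493 and 504 FPKM in the Fraction 5 libraries, against 360.4, 380.1 and 394 FPKM in the Fraction 3 libraries (0.41 ± 0.06). Pirb (listed as Lilrb3, 1.04), Fcrl1 (0.57) and Siglecg (0.38) were higher as well. Downstream, Ptpn22, a phosphatase that dampens Src-family kinases, had 6.89, 6.87 and 7.07 FPKM in the Fraction 5 libraries, against 2.1, 1.81 and 2.9 FPKM in the Fraction 3 libraries, a log2 difference of 1.29 ± 0.15 (SE; limma, adjusted p = 4.46e-05). Blk (0.54), Nfatc1 (0.56) and the adaptor Bank1 (0.44) were higher and the kinase subunit Pik3cb (−0.59) was lower. Of 43 signalling genes 7 were higher (16.3%, against 9.99% of all genes) and 1 lower (2.33%, against 19.5%). After quantile normalization 21 were higher, and 13 after median-ratio scaling.

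Antigen presentation and receptors for T cell help were higher in modest steps. MHC class II presentation had 10 of 18 genes higher and none lower (median 0.28). H2-Oa, a chain of the H2-O protein that restrains peptide loading, had 259, 253 and 253 FPKM in the Fraction 5 libraries, against 136, 147 and 164 FPKM in the Fraction 3 libraries, a log2 difference of 0.78 ± 0.07 (SE; limma, adjusted p = 8.38e-06). Its partner H2-Ob (0.61), the class II chain H2-Aa (0.40) and the class II transactivator Ciita (0.34) rose, and the invariant chain Cd74 was not called (0.23). Of 28 genes of T cell help 13 were higher and none was lower, with 8 higher without Fraction 3 library 1. They included the PD-1 ligands Cd274, with 6.05, 7.3 and 7.27 FPKM in Fraction 5, against 3.83, 2.67 and 4.38 FPKM in Fraction 3 (0.78 ± 0.13), and Pdcd1lg2 (0.64), the adhesion receptor Cd84 (0.55), Tgfbr2 (0.56) and Ifngr2 (0.48). Cd40 (0.17), Il21r (0.20) and Il9r were not called, the last with a log2 difference of 1.13 ± 0.41 (SE; limma, adjusted p = 0.0554). Among 29 NF-kB genes 12 were higher and 1 was lower, among them the inhibitors Nfkbie (0.59) and Tnfaip3 (0.42). Higher genes numbered 6 without Fraction 5 library 2, 7 without Fraction 3 library 1 and 20 after quantile normalization.

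Several protective members of the Bcl2 family were higher. Bcl2 had 2.81, 2.48 and 2.66 FPKM in the Fraction 5 libraries, against 0.608, 1.26 and 1.16 FPKM in the Fraction 3 libraries, a log2 difference of 0.88 ± 0.20 (SE; limma, adjusted p = 0.00579). Its Fraction 5 libraries were above every Fraction 3 library, at low levels in both gates. Mcl1 had 207, 199 and 205 FPKM in the Fraction 5 libraries, against 159.7, 141 and 167 FPKM in the Fraction 3 libraries (0.39 ± 0.09), and Bcl2l2 was higher by 0.63. The near-identical paralogs Bcl2a1a (0.53), Bcl2a1b (0.47) and Bcl2a1d (0.54) were higher, but reads can be split among them and their separate values are uncertain. Of the killers, the pore former Bax had 70.2, 69.7 and 76.4 FPKM in the Fraction 5 libraries, against 96.0, 89.5 and 103 FPKM in the Fraction 3 libraries (−0.41 ± 0.09). Bak1 (−0.38) lost its call without Fraction 5 library 1 (limma adjusted p 0.0585). The p53 target Bbc3 went the other way, higher by 0.77, and lost its call without Fraction 5 library 1, Fraction 5 library 3 or Fraction 3 library 2 (highest limma adjusted p 0.148). In all, 7 of 17 were higher (41.2%, against 9.99% of all genes) and 2 lower (11.8%, against 19.5%).

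The Gimap GTPases, genes of lymphocyte survival, were higher for 6 of 8 and lower for none, with a median of 0.48. Gimap3 had 102, 104 and 117 FPKM in the Fraction 5 libraries, against 57.4, 62.9 and 63.2 FPKM in the Fraction 3 libraries (0.80 ± 0.08), and Gimap4 was higher by 0.68. Tnfrsf18, which encodes the costimulatory receptor GITR, had 5.66, 5.3 and 5.04 FPKM in the Fraction 5 libraries, against 1.16, 0.885 and 0.918 FPKM in the Fraction 3 libraries, a log2 difference of 1.67 ± 0.14 (SE; limma, adjusted p = 7.07e-06). Of 23 interferon-stimulated genes 2 were higher (8.70%, against 9.99% of all genes) and none was lower, and the higher count was 1 without Fraction 5 library 2 and 4 without Fraction 5 library 3. One of the 2 was Ddx58 (0.97), the RNA sensor RIG-I.

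Outside these lists, the largest rises and falls touched several unrelated functions. Ephx1, the microsomal epoxide hydrolase, had 29.1, 29.8 and 25.5 FPKM in the Fraction 5 libraries, against 4.98, 7.64 and 7.4 FPKM in the Fraction 3 libraries, a log2 difference of 1.94 ± 0.13 (SE; limma, adjusted p = 1.77e-06). Fcgrt, the heavy chain of the neonatal Fc receptor that recycles IgG, had 13.7, 12.3 and 11.8 FPKM in the Fraction 5 libraries, against 2.39, 3.27 and 3.52 FPKM in the Fraction 3 libraries, a log2 difference of 1.75 ± 0.12 (SE; limma, adjusted p = 2.10e-06). Both sets of libraries were well separated. Clec2i (1.89), the protease inhibitor Serpinb1a (1.49), the adaptor Grap2 (1.46) and Ms4a6c (1.38) were higher too. The largest falls outside the lists were AI848285 (−1.56), the mitochondrial cristae protein Apoo (−1.46) and the embryonic globin Hbb-bh1, which had 6.01, 11.2 and 12.9 FPKM in the Fraction 5 libraries, against 39.6, 31.7 and 59.6 FPKM in the Fraction 3 libraries (−2.03 ± 0.33). Summed markers of red cells were 34.3, 139.7 and 48.6 FPKM in Fraction 5 and 49.9, 64.5 and 66.6 FPKM in Fraction 3, which overlap.

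**Figure D4:**
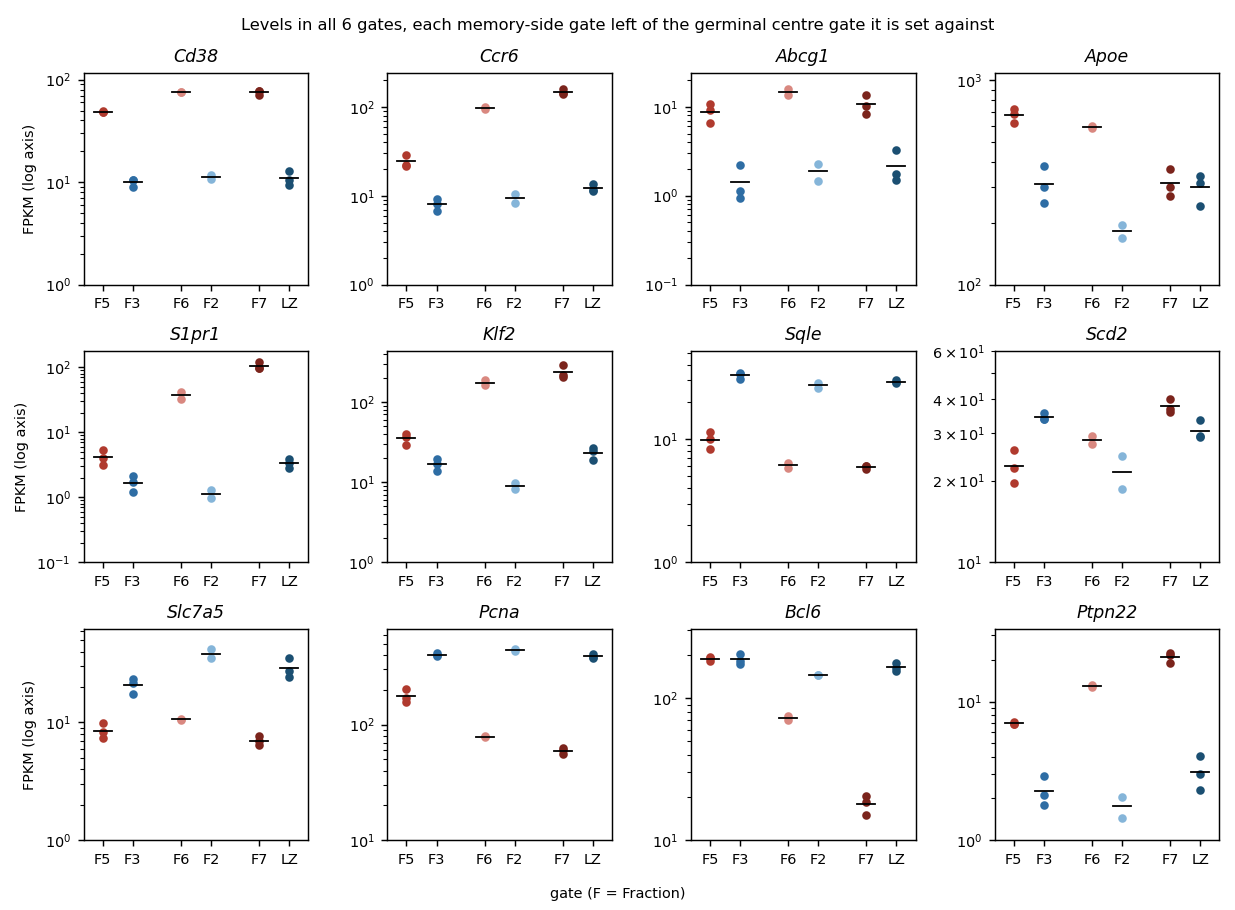
FPKM on a log axis in every library of the 6 gates (points, with the mean as a bar) for 12 genes, arranged as Fraction 5 and Fraction 3, Fraction 6 and Fraction 2, and Fraction 7 and LZ. Bcl6 averages 189 FPKM in Fraction 5 and 187 FPKM in Fraction 3, then 72.8 FPKM in Fraction 6 and 18.0 FPKM in Fraction 7, while Sqle and Pcna are lower in Fraction 5 than in Fraction 3. Fraction 6 and Fraction 7 were sorted for a low Bcl6 reporter, so their Bcl6 values describe the selection.

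The other gates share no library with Fraction 5 and Fraction 3. They set the pre-memory and mature memory gates against germinal centre gates, again dividing CD38+ from CD38− cells. Fraction 6 and Fraction 7 were also sorted as reporter low, whereas Fraction 5 was reporter high, and Fraction 2 was sorted as CD69 high. All gates were sorted at day 10, and their order in time was not tested. All contrasts come from 1 model with a shared estimate of spread. Of the 1125 genes higher in Fraction 5, 814 (72.4%) were also higher in Fraction 7 than in the LZ gate and 80 (7.11%) were lower, where 24.1% of all tested genes were higher and 38.0% lower. These 814 are 29.9% of the genes higher in Fraction 7. In Fraction 6 against Fraction 2, 916 (81.4%) were higher and 10 lower, where 21.0% of all genes were higher and 31.2% lower, and they make up 38.7% of that list. Of the 2197 genes lower in Fraction 5, 1996 (90.9%) were lower in Fraction 7 than in the LZ gate and 23 were higher, and 2034 (92.6%) were lower in Fraction 6 than in Fraction 2 and 5 were higher. They form 46.6% and 57.8% of the genes lower in those contrasts. The LZ gate was not divided by the reporter or CD69 and may contain cells of the Fraction 2 and Fraction 3 types.

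By mean level, Fraction 5 stood between the light zone gate Fraction 3 and mature memory for most of these genes. Of the 1125 higher genes 734 were higher still in Fraction 7, and of the 2197 lower genes 1718 were lower still there. These genes were called by their Fraction 5 values, and the matching share over all tested genes was not computed. Ccr6 averaged 24.4 FPKM in Fraction 5, 97.8 FPKM in Fraction 6 and 148 FPKM in Fraction 7, against 8.06 FPKM in Fraction 3. Klf2 averaged 35.3 FPKM in Fraction 5, 174 FPKM in Fraction 6 and 236 FPKM in Fraction 7, against 16.7 FPKM in Fraction 3. The first principal component, 46.4% of the variance, ordered the gates the same way: Fraction 5 lay at −7.0 to 1.8, Fraction 6 at 33.8 to 36.5 and Fraction 7 at 63.4 to 68.4, against −33.4 to −31.0 for Fraction 3 and −40.4 for Fraction 2.

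**Figure D5:**
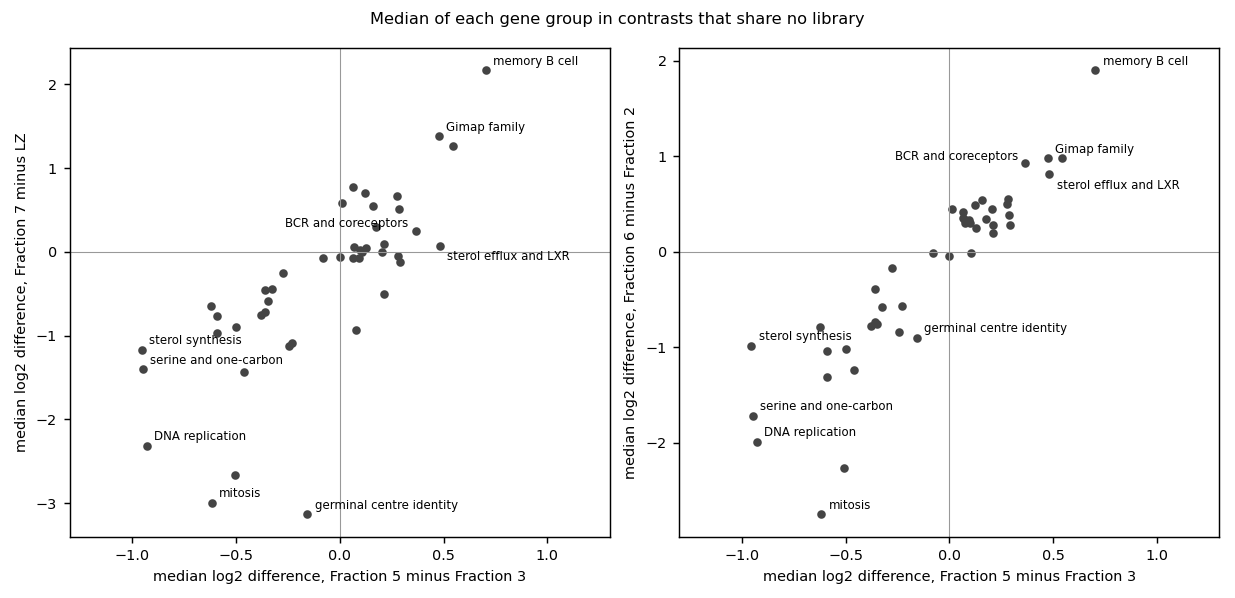
Median log2 difference of each gene group in Fraction 5 minus Fraction 3 (x axis) against its median in Fraction 7 minus LZ (left panel, y axis) and in Fraction 6 minus Fraction 2 (right panel, y axis). Each point is 1 gene group. Germinal centre identity is near 0 on the x axis, at −0.16, but at −3.14 in Fraction 7 minus LZ.

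The medians of the gene groups are set side by side in the 3 contrasts. Sterol synthesis had a median of −0.95 in Fraction 5 minus Fraction 3, −1.17 in Fraction 7 minus LZ and −0.99 in Fraction 6 minus Fraction 2. DNA replication had −0.93, −2.31 and −1.99 in the same contrasts, and mitosis had −0.62, −2.99 and −2.75. Germinal centre identity had −0.16, −3.14 and −0.90, and the memory list had 0.70, 2.17 and 1.90. The differences between these contrasts were not tested, nor was the part of the low reporter gate of Fraction 6 and Fraction 7 in them. Efflux genes had 0.48, 0.07 and 0.81: Apoe averaged 314 FPKM in Fraction 7 against 299 FPKM in the LZ gate, and 591 FPKM in Fraction 6 against 182 FPKM in Fraction 2, whereas Abcg1 averaged 10.7 FPKM in Fraction 7 against 2.17 FPKM in the LZ gate, and 14.7 FPKM in Fraction 6 against 1.88 FPKM in Fraction 2. MHC class II presentation had 10 genes higher and none lower in Fraction 5, 6 higher and 4 lower in Fraction 7 against LZ, and 16 higher and 1 lower in Fraction 6 against Fraction 2.

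Some called genes had their extreme level in Fraction 5 or moved against the other contrasts. These genes were first called by their Fraction 5 values, so such extremes follow in part from that choice. The counts are a description only, and the share over all tested genes was not computed. Of the 1125 higher genes 178 had their highest gate mean in Fraction 5, and 349 of the 2197 lower genes had their lowest mean there. In 47 higher genes of at least 5 FPKM all 3 Fraction 5 libraries stood above all 13 other libraries. Apoe led this set. Other members, chosen for mention after their values were seen, were Ptms (1.02), Acvr1b (0.67), a type I activin receptor, Trp53inp1 (0.58), Ccng2 (0.54), an atypical cyclin of quiescent cells, and H2-Eb2 (0.38). Only 2 lower genes were higher in both other contrasts: Scd2, which averaged 37.5 FPKM in Fraction 7 against 30.6 FPKM in the LZ gate, and 28.2 FPKM in Fraction 6 against 21.6 FPKM in Fraction 2, and Esyt1. The 7 higher genes that were lower in both were 2210013O21Rik, Gstt3, Nrgn, Gstt2, Lefty1, Dynlt3 and Traf1, the last of which lost its call without any 1 of 5 libraries, all but Fraction 3 library 3 (highest limma adjusted p 0.0855).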

How the data were processed

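RNA of sorted mouse B cells was extracted with TRIzol and sequenced on a HiSeq from NEBNext Ultra libraries, per the labels' protocols. The deposited values are FPKM per gene made by the authors. TopHat2 2.0.8, Cufflinks 2.1.1 and the mouse build mm9 are named in the submitters' processing notes. These values are not counts, so no count model was used. The table held 23234 named genes, and 1 row without a name was left out. A gene was tested where 2 or more of 16 libraries reached 1 FPKM, on log2(FPKM + 1), which understates changes of low genes. limma 3.58.1 (R 4.3.3) was fitted to 6 group means with a trended prior, two-sided, with Benjamini-Hochberg adjustment over 11266 genes and a threshold of 0.05. Differences are Fraction 5 minus Fraction 3, with standard errors after ±. Tables and figures were made with Python 3.11.15, pandas 2.3.3, numpy 2.4.6 and matplotlib 3.10.9.

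The gene lists and the gates compared were chosen with earlier results of these data known, and no set test was run. Named genes were the 15 largest rises and 15 largest falls whose mean in one of the gates reached 5 FPKM, the marker and sort genes, a fixed panel, up to 5 members of a list in each direction by smallest adjusted p, and uncalled members where a pathway is described in full. Short RNA genes among the largest, whose FPKM are erratic, are not described. Alternatives were other scalings, pseudocounts and filters, a fit to the compared gates alone, array weights, a replicate block and leaving out each library. Promoter letters come from RefSeq (GRCm38.p6) and were matched by symbol. Older symbols of the table are given where used. Some genes of the lists enter the counts and medians but are not reported here by name.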

Additional observations from a re-analysis of the deposited data

How the results depend on the processing

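Of 1099 listed or largest genes 578 were called, and 150 of these lost the call when at least 1 of the 6 libraries was left out. Leaving out 1 library gave 762 to 1002 genes higher in Fraction 5 and 1556 to 2075 lower. The extremes of the higher count were 762 without Fraction 3 library 1 and 1002 without Fraction 3 library 3, and the lowest lower count came without Fraction 5 library 1. The counts kept within 1.5 times of 1125 higher and 2197 lower under a pseudocount of 0.1 (1138 higher, 2145 lower), no filter on low values (889 and 1843), a filter of 5 FPKM (970 and 2147), a fit to the 2 gates alone (941 and 1941) and array weights (1393 and 2582). Quantile normalization raised the number of higher genes that were also higher in Fraction 7 than in LZ to 1273 (814 as deposited) and those also higher in Fraction 6 than in Fraction 2 to 1484 (916 as deposited). Quantile normalization turned 2 listed genes round: Bid, −0.03 as deposited, was 0.18 (limma adjusted p = 0.0368) and Inpp5d, −0.05 as deposited, was 0.16, the cause of which was not tested. Replicate numbers are shared between gates, and the labels do not state whether they pair the libraries. Deviations of same-numbered libraries from their gate means had r across genes of −0.025, 0.066 and 0.124. Such small values from 3 libraries per gate cannot decide whether the numbers pair them. A fit with the replicate block gave 898 higher and 1851 lower. In it 2 S1P receptor genes, 2 Kruppel-like factors and 1 immediate early gene were higher (4 each without it), the calls of S1pr1, Klf3, Klf10 and Egr3 being lost, while 7 mTORC1 genes were lower (4 without it). With 3 libraries against 3 the smallest exact two-sided permutation p is 0.1, so single genes were tested only within the model across all genes. FPKM hide the number of reads, which limits statements on genes near 1 FPKM.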

Other observations

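A few further genes of guidance, calcium binding and G-protein signalling differed between the gates. Of 13 tested ephrins, plexins and semaphorins 4 were higher in Fraction 5 (30.8%, against 9.99% of all tested genes), and 2 without Fraction 3 library 2. The receptor Plxnb2 was the only lower gene (7.69%, against 19.5%). Plxnb2 had 35.7, 35.4 and 38.0 FPKM in the Fraction 5 libraries, against 55.5, 52.3 and 58.2 FPKM in the Fraction 3 libraries, a log2 difference of −0.59 ± 0.08 (SE; limma, adjusted p = 0.000123). The semaphorins Sema4b (0.36) and Sema6b (0.70) were higher. Among 17 S100 and annexin genes 2 were higher (11.8%, against 9.99% of all tested genes) and none was lower, and 4 were higher with a pseudocount of 0.1. The 2 were Anxa5, which binds exposed phosphatidylserine, and Anxa4 (0.67). Anxa5 had 6.9, 8.64 and 4.97 FPKM in the Fraction 5 libraries, against 3.7, 2.6 and 3.11 FPKM in the Fraction 3 libraries, a log2 difference of 0.90 ± 0.17 (SE; limma, adjusted p = 0.0016). Of 8 regulators of G-protein signalling 2 were higher (25.0%, against 9.99% of all tested genes), and Rgs3 (0.49) kept its call without any 1 library.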
